A study of Mus musculus with 7 samples.

Results

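The miR-99 and miR-100 family was examined here as the 3 hairpins mmu-mir-99a, mmu-mir-99b and mmu-mir-100, chosen by name, out of 1174 mouse hairpins on which sequence tags were placed. Each hairpin gave tags from both arms, so that 6 strands were followed, among 1147 strands with at least 1 tag. The strand from the 5′ arm is called miR-99a, miR-99b or miR-100, and the strand from the 3′ arm miR-99a*, miR-99b* or miR-100*. The data were small RNA libraries of HL-1 cells, an immortalised mouse line derived from atrial cardiomyocytes, with no treatment named in the labels. Days 1, 3 and 4 of culture were each sampled by 2 libraries, and day 2 by 1. The replicate number was taken to name the repeat of the time course, which the labels do not state. The paper describes a time course and an independent repeat without day 2. On this reading, time course 1 gave 3 libraries (days 1, 3 and 4) and time course 2 gave 4 (days 1 to 4). All groups were the same line, so the libraries describe repeats of 1 line and not separate animals.

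A miRNA is cut from a hairpin, first by Drosha and then by Dicer, as a duplex of which Argonaute usually keeps the so-called mature strand, while the other (miR*) is mostly lost. Target recognition rests mainly on the seed, bases 2 to 8 counted from the 5′ end, so a shift of the start by a single base gives a different seed. Genes of this family lie beside let-7 and miR-125 genes in several animals, and Mtor, Igf1r and Smarca5 are among their studied targets. The mature sequences are shown first, because the results turn on how alike the strands are and where their seeds begin. They are the RefSeq sequences for GRCm38.p6, written 5′ to 3′ with the seed in capitals.
miR-99a: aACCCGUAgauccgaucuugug
miR-100: aACCCGUAgauccgaacuugug
miR-99b: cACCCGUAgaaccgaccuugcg
miR-99a*: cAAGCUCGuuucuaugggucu
miR-99b*: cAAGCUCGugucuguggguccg
miR-100*: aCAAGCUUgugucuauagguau
The 3 strands of the 5′ arm had the same seed, and among 1679 annotated mouse mature sequences only these 3 carried it. Counted from 1 at the 5′ end, miR-99a and miR-100 differed at 1 base, U16A. From miR-99a to miR-99b there were 4 changes (A1C, U11A, U16C and U21C), all outside the seed. The seed of miR-99a* and miR-99b* was shared by these 2 strands and by no other annotated sequence, whereas annotated miR-100* started 1 base earlier on its hairpin and thus had a seed of its own.

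The 3 hairpins lie on different chromosomes (coordinates of GRCm38, GENCODE annotation, all on the plus strand). The miR-99a hairpin is at chr16:77598936-77599000, in an intron of the non-coding host gene Mir99ahg, and let-7c-1 begins 0.721 kb and mir-125b-2 47.3 kb away. The miR-99b hairpin is at chr17:17830188-17830257, in an intron of the protein-coding gene Spaca6, with let-7e beginning 0.164 kb and mir-125a 0.624 kb downstream. The miR-100 hairpin is at chr9:41531425-41531504, in an intron of the non-coding gene 3110039I08Rik, where let-7a-2 begins 5.29 kb and mir-125b-1 50.5 kb away. An annotated non-coding RNA, Gm48742, has an exon over it on the opposite strand. In structures predicted with RNAfold the first base of each 5′ strand was unpaired and the first base of each 3′ strand was paired, and 15 (miR-99a), 16 (miR-99b) and 12 (miR-100) bases lay between the annotated strands.

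The libraries held 4945112 to 6899476 tags each, and 92.9% of all tags were placed on a hairpin without a mismatch. Muscle miRNAs (miR-1, miR-133a, miR-208a and miR-499) made up 8.63% to 10.6% of generic tags, that is, tags starting within 3 nt of a strand's annotated start. Markers of endothelium, blood, fibroblasts, liver and neurons summed to 0.0556% to 0.0988%, most of it miR-126a, and miR-214 and miR-124 were at 0 in at least 1 library. Levels are given below as CPM, that is, tags scaled to a common number of generic tags per library with TMM factors. They are thus relative to the other tags of a library and are not amounts per cell. Errors are given as the standard deviation (SD) over libraries.

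The family was dominated by miR-99a, which stood above miR-100, which stood above miR-99b, in every library. Mean levels over the 7 libraries were 23374 ± 2456 CPM for miR-99a, 8322 ± 1295 CPM for miR-100 and 3254 ± 681 CPM for miR-99b (SD, n = 7). The 6 strands together took 3.55% ± 0.212 of generic tags, and of the tags that carried the common seed 66.9% ± 4.02 were miR-99a, 23.8% ± 3.14 miR-100 and 9.31% ± 1.75 miR-99b. Ranked by count among all strands, miR-99a was between 8th and 14th, miR-100 between 26th and 33rd and miR-99b between 48th and 59th.

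Within libraries, miR-99a exceeded miR-100 by 1.498 ± 0.28 and miR-99b by 2.87 ± 0.35 on the log2 scale (SD, n = 7), and miR-100 exceeded miR-99b by 1.37 ± 0.31. Each difference had the same sign in 7 of 7 libraries, with p = 0.0156 in an exact two-sided sign-flip permutation test, the smallest value that 7 libraries allow. The adjusted p was 0.0156 as well, over the 18 comparisons between members described here. This test takes the libraries as independent although they came from 2 time courses.

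The strands of the 3′ arm were far lower. miR-99b* averaged 518 ± 216 CPM, miR-100* 85.9 ± 18.8 CPM and miR-99a* 51.8 ± 20.7 CPM. The last pair was the only one next to each other in this order that was not separated in every library. The log2 ratio of miR-100* to miR-99a* ran from -0.12 to 1.72 with a mean of 0.79 ± 0.72 (SD, n = 7), and both strands were nearly level at day 1.

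The level of miR-99a was among the steadiest. Its coefficient of variation over libraries was 10.5%, below that of 97.6% of the 414 strands with at least 150 tags, whose median was 27.8%. The values for miR-100 (15.6%), miR-99b (20.9%) and miR-100* (21.9%) were also under that median, while those of miR-99b* (41.8%) and miR-99a* (40.0%) were above it. Counting error weighs more on rare strands, and miR-99a was among the most abundant. Strands of like abundance were not compared, so whether this order follows abundance was not tested.

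**Figure D1:**
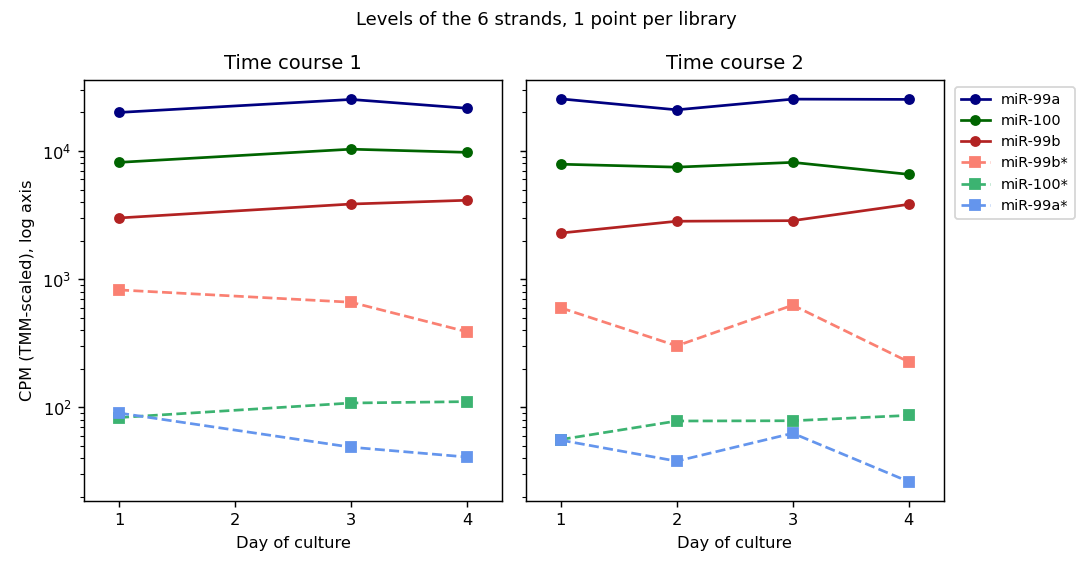
Level of each of the 6 strands (TMM-scaled CPM, log axis) against day of culture, 1 point per library, with time course 1 on the left (no day 2) and time course 2 on the right; solid lines are strands of the 5′ arm and dashed lines strands of the 3′ arm. The order miR-99a, miR-100, miR-99b, miR-99b* was the same in all 7 libraries, and miR-99b* and miR-99a* lay lower at day 4 than at day 1 in both time courses.

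The hairpins differed strongly in how many tags their 3′ arm gave. Of the tags on both arms, the 3′ arm held 14.1% ± 6.29 for miR-99b, 1.02% ± 0.179 for miR-100 and 0.226% ± 0.108 for miR-99a (SD, n = 7). In log2 odds, the miR-99a hairpin differed from miR-99b by -6.15 ± 0.46 and from miR-100 by -2.29 ± 0.79, and miR-99b lay 3.86 ± 1.07 above miR-100. All 3 differences kept their sign in 7 of 7 libraries (exact sign-flip permutation test, p = 0.0156 each, adjusted p = 0.0156). For comparison, over 263 hairpins with at least 150 tags the median share of the less frequent arm was 5.96%, so that miR-99b lay above it and the other two below.

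On the miR-99b hairpin the share also varied widely between libraries. It started from 21.5% (Wilson 95% interval 21.06 to 22.02) on day 1 of time course 1, and the libraries of days 3 and 4 had 14.6% and 8.60% (8.222 to 9.002). Time course 2 started from 20.7% (20.1 to 21.3) and went on with 9.64%, 17.98% and 5.57% (5.30 to 5.85) on days 2, 3 and 4. Both day 4 libraries lay below both day 1 libraries, but the path between was not even, since the day 2 library lay below both day 3 libraries. These intervals cover counting error only.

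From day 1 to day 4 the log2 odds of the 3′ arm of miR-99b differed by -1.85 (SE 0.52), with limma's adjusted p = 0.322 over 190 hairpins. The miR-99a hairpin went from 0.450% to 0.190% in time course 1 and from 0.217% to 0.104% in time course 2, a difference of -1.15 (SE 0.59) in log2 odds with an adjusted p of 0.503 from limma. This value was -0.63 without the day 1 library of time course 1 and -0.72 without the day 4 library of time course 2. The miR-100 hairpin went from 1.012% to 1.12% and from 0.707% to 1.30%, a difference of 0.52 (SE 0.50) with an adjusted p of 0.752 from limma, and the difference was 0.26 without the day 1 library of time course 2 and 0.78 without that of time course 1. Of the 3 hairpins, miR-99b and miR-99a had lower shares in both day 4 libraries than in both day 1 libraries, and miR-100 higher ones. With 2 libraries a day such a parting carries little weight, and its frequency over the 190 hairpins tested was not counted. None of the 3 passed the threshold of 0.05, as in 0% of the hairpins tested, where limma gave 17 of 190 an unadjusted p under 0.05.

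**Figure D2:**
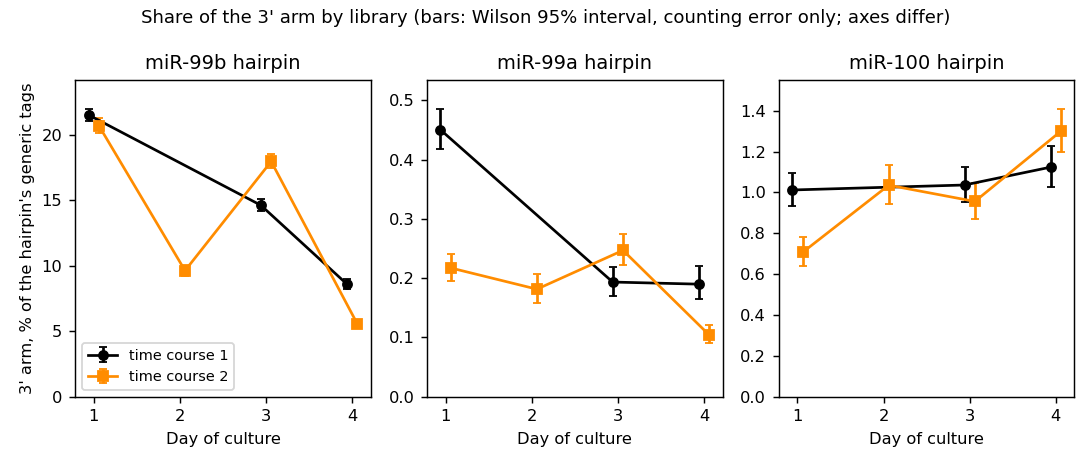
Share of the 3′ arm among generic tags of each hairpin (percent, axes differ between panels and start at 0) against day of culture, by time course; bars are Wilson 95% intervals of the counts. On miR-99b it was 21.5% and 20.7% at day 1 and 8.60% and 5.57% at day 4.

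Levels of the single strands were compared between day 4 and day 1, the ends of the period over which the cells pass from a non-beating to a beating culture. The 2 passenger strands miR-99b* and miR-99a* were lower at day 4 in both time courses, miR-99b and miR-100* were higher, and miR-99a and miR-100 had fold changes near 0. No strand passed the test. Because these levels are relative, a change shared by most miRNAs would not show in them. The paper describes such a general rise of miRNA levels, found by quantitative PCR against snoRNAs as the cells became confluent. A fold change near 0 is therefore no sign of a constant amount per cell, and the falls are likewise relative. Amounts per cell were not tested. miR-99b* had 823, 660 and 388 CPM on days 1, 3 and 4 of time course 1, and 597, 302, 627 and 226 CPM on days 1 to 4 of time course 2. Its day 4 libraries lay below its day 1 and day 3 libraries without overlap, and the day 2 library lay between the day 4 values. Its log2 fold change (day 4 over day 1) was -1.21 (SE 0.37), with an adjusted p of 0.372 from edgeR's quasi-likelihood test and of 0.111 from DESeq2. The paper had scored this strand as down-regulated in these libraries, by a fold-change criterion met in both repeats.

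miR-99a* had 90.3, 48.9 and 40.9 CPM on days 1, 3 and 4 of time course 1, and 55.4, 38.0, 62.8 and 26.3 CPM on days 1 to 4 of time course 2. Both day 4 values were lower than both day 1 values, and the day 3 values overlapped those of day 1. Its log2 fold change was -1.12 (SE 0.42, edgeR's adjusted p = 0.385), and without the day 1 library of time course 1 it was -0.72. Over all 7 libraries the log2 CPM of miR-99a* and miR-99b* had a Pearson correlation of 0.94, a description over libraries that share depth and time course. Such a value was not particular to this pair, since miR-99b and miR-100* of different hairpins had 0.93. The other pairs of members ran from -0.46 to 0.58.

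miR-99b, the other strand of the duplex with miR-99b*, went the other way. In the same order of libraries it had 3000, 3851 and 4122 CPM in time course 1 and 2287, 2827, 2858 and 3832 CPM in time course 2. Both day 4 libraries were above both day 1 libraries, and the log2 fold change was 0.59 (SE 0.29, edgeR's adjusted p = 0.556). Beside it, miR-126a-3p, a marker of endothelium, had 336, 559 and 532 CPM in time course 1 and 215, 289, 326 and 603 CPM in time course 2, with a log2 fold change of 1.04 (SE 0.39, edgeR's adjusted p = 0.385). The markers of other cell types summed to 0.0751% and 0.0556% at day 1 and 0.0931% and 0.0988% at day 4, and without miR-126a to 0.00849% and 0.00720% at day 1 and 0.00568% and 0.00623% at day 4. Their part in the level of miR-99b was not tested. miR-100* had 83.3, 108 and 111 CPM in time course 1 and 56.1, 78.2, 78.6 and 86.5 CPM in time course 2. Its day 4 libraries also stood above those of day 1, with a log2 fold change of 0.50 (SE 0.38, edgeR's adjusted p = 0.657).

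The abundant miR-99a had 19955, 25203 and 21514 CPM in time course 1 and 25463, 20916, 25350 and 25218 CPM in time course 2. Its day 1 and day 4 libraries overlapped, and the log2 fold change of 0.04 (SE 0.25, edgeR's adjusted p = 0.976) changed sign with the scaling. miR-100 had 8141, 10315 and 9744 CPM in time course 1 and 7876, 7472, 8140 and 6565 CPM in time course 2. The day 4 libraries lay on either side of those of day 1, so that the log2 fold change of 0.03 (SE 0.29, edgeR's adjusted p = 0.988) also changed sign with the scaling.

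Counted over the family, 0 of 6 strands passed an adjusted p of 0.05 between day 4 and day 1, against 0% of the 587 strands tested. Among these 587 strands edgeR gave 63 an unadjusted p under 0.05, of which miR-99b* and miR-99a* were members of the family, and DESeq2 called 15 strands, none of them a member. The median log2 fold change was 0.03 over the 6 strands and 0.01 over all strands tested. At day 3 and at day 2 against day 1, edgeR likewise called 0 of the 6 strands and 0% of all strands, with 33 and 19 of 587 at an unadjusted p under 0.05. The single library of day 2 was assumed to vary like the others. In these bulk samples a lower level in each cell and fewer cells with that level cannot be told apart.

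The neighbouring genes of the 3 clusters gave 11 strands, from a list of the 6 nearest let-7 and mir-125 hairpins. Of these, 6 had a higher and 5 a lower level at day 4, 0 passed the test, and the median log2 fold change was 0.06. Let-7c-1-3p, the passenger strand of the hairpin next to miR-99a, had 66.9 and 63.7 CPM at day 1 and 29.3 and 28.1 CPM at day 4, without overlap. Its log2 fold change of -1.18 (SE 0.32, edgeR's adjusted p = 0.372) stood beside -1.12 for miR-99a*, but miR-125b-2-3p of the same cluster had 0.11 (adjusted p = 0.976). The 2 passenger strands also parted on day 3 of time course 2, with -1.08 for let-7c-1-3p and 0.18 for miR-99a* against day 1 on the log2 scale. In the miR-99b cluster, let-7e-3p had -0.57 (adjusted p = 0.584) and miR-125a-5p 0.39 (adjusted p = 0.672) in the same edgeR fit. Their partner strands were near 0 in that fit, with 0.06 for let-7e-5p (adjusted p = 0.988) and 0.08 for miR-125a-3p (adjusted p = 0.982). In the miR-100 cluster, let-7a-2-3p had -0.50 (adjusted p = 0.612) and miR-125b-1-3p 0.41 (adjusted p = 0.718). Let-7c-5p, let-7a-5p and miR-125b-5p each come from 2 hairpins in this genome, so their levels cannot be assigned to a single cluster.

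**Figure D3:**
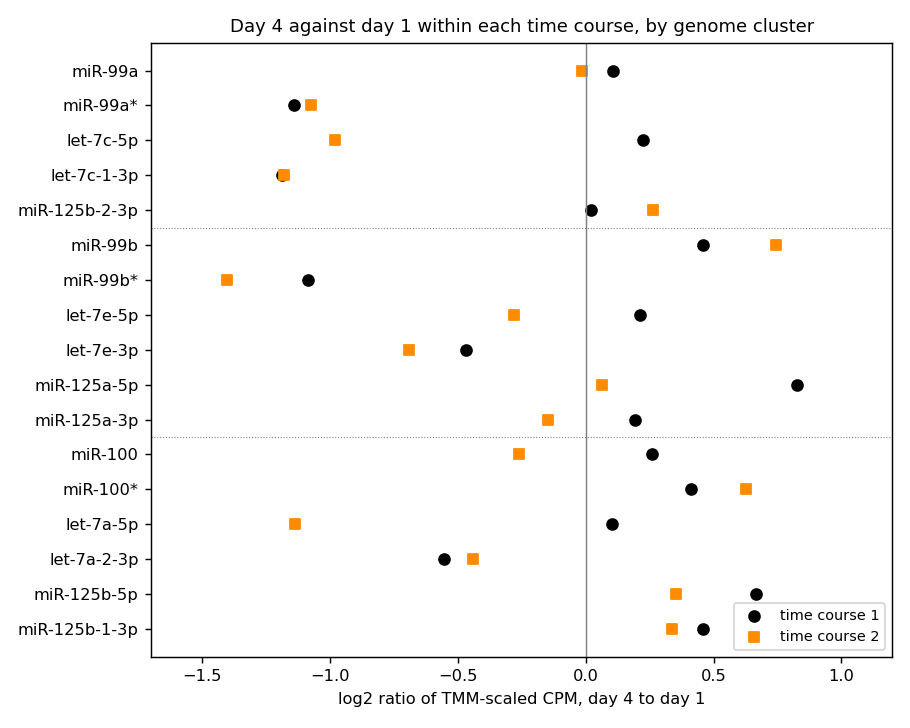
Log2 ratio of the level (TMM-scaled CPM) at day 4 to that at day 1 for the 6 strands and the 11 strands of neighbouring let-7 and miR-125 hairpins, with circles for time course 1 and squares for time course 2; dotted lines part the clusters of miR-99a (top), miR-99b (middle) and miR-100 (bottom), and miR-125b-5p, which belongs to the first and last, is drawn once. Both points of miR-99a*, let-7c-1-3p and miR-99b* lie below -1, and none of these strands passed the test.

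The start of a strand decides its seed, and the family held both very uniform and shifted starts. On the 5′ arm, nearly all tags began at the annotated base. The share that began elsewhere was 0.593% ± 0.0742 for miR-99a, 1.05% ± 0.195 for miR-99b and 1.43% ± 0.226 for miR-100 (SD, n = 7), below the median of 4.13% over 414 strands with at least 150 tags. On the 3′ arm it was 1.73% ± 0.452 for miR-99b*, 13.0% ± 1.14 for miR-99a* and 67.3% ± 6.78 for miR-100*. All 6 pairwise differences between members, 3 on each arm, held in 7 of 7 libraries (exact sign-flip permutation test, p = 0.0156 each, adjusted p = 0.0156). The shifted start of miR-100* was already known from these data, so the p values that involve it describe a result seen before.

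Starts and ends are counted from the RefSeq positions, which may differ from those of the miRBase release used in the study, so that shares off the annotation on the 3′ arm depend on this choice. On the 3′ arm most of the shifted tags started 1 base downstream of the annotation. This start held 12.3% ± 1.38 of miR-99a* tags and 66.1% ± 6.90 of miR-100* tags. Since the annotated miR-100* begins 1 base earlier than its relatives, the shifted form is the one that lines up with them. It is shown with the annotated form, as the leading tags of this strand, again with bases 2 to 8 in capitals.
miR-100*, 1 base downstream: cAAGCUUGugucuauagguau
miR-100*, annotated: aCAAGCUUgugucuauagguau
The first sequence was the most frequent tag of miR-100*, with 33.3% ± 2.49 of its tags against 27.5% ± 7.05 for the second. Set against miR-99a* from base 1, the shifted form had 4 changes (U7C, G10U, A16G and A20C), and against miR-99b* 5 changes. The single change within the seed, U7C, was the same in both cases. No annotated mouse mature sequence had the seed of the shifted form.

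The share of miR-100* tags off the annotated start was 69.6%, 67.1% and 60.8% over time course 1 and 72.1%, 56.0%, 69.8% and 75.7% over time course 2. The day 1 values lay between those of day 4, and the difference in log2 odds was -0.14 (SE 0.37, limma's adjusted p = 0.966). miR-99b* went from 1.203% to 2.05% and from 1.49% to 2.54%, without overlap of the days, a difference of 0.79 (SE 0.23) with limma's adjusted p = 0.45. Over the family 0 of 6 strands passed the test of starts, against 0% of 297 strands tested, of which 26 had an unadjusted p under 0.05 by limma.

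**Figure D4:**
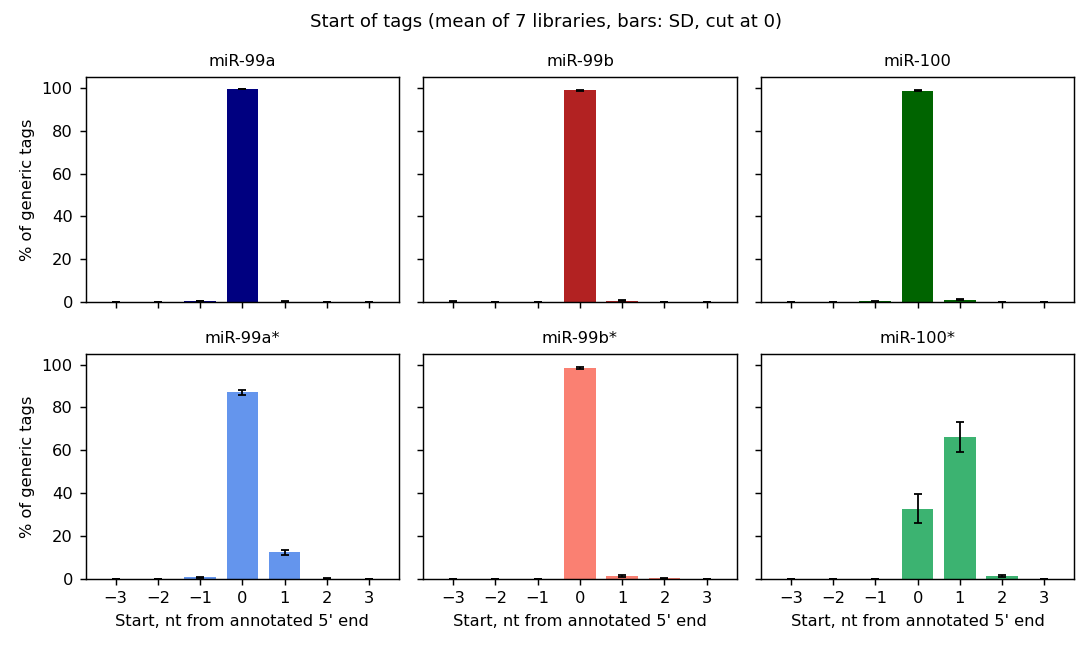
Start of tags relative to the annotated 5′ end (nt, positive values downstream) for the 6 strands, in percent of generic tags, as the mean over 7 libraries with the SD as bars. Single bars at 0 dominate all strands but miR-100*, whose +1 start held 66.1%, and miR-99a* has a second bar of 12.3% at +1.

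The 3′ ends were more varied, and the most frequent end was not always the annotated one. This is seen in the leading tag of each strand, given here for the 5 strands other than miR-100*.
miR-99a, 40.1% of tags: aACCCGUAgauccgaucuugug
miR-100, 39.4% of tags: aACCCGUAgauccgaacuugu
miR-99b, 23.9% of tags: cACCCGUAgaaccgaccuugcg
miR-99a*, 29.6% of tags: cAAGCUCGuuucuaugggucugu
miR-99b*, 24.4% of tags: cAAGCUCGugucuguggguccgu
On the 5′ arm, miR-99a most often ended at the annotated base (43.4% ± 2.47), and miR-100 most often 1 base before it (41.0% ± 3.57). miR-99b was spread, with 27.6% ± 2.00 at the annotated end, 22.4% ± 1.63 a base past it and 18.5% ± 2.03 at 2 bases before it. Tags that stopped short of the annotated end made up 30.1% ± 4.29 of miR-99a, 42.7% ± 2.16 of miR-99b and 51.5% ± 4.39 of miR-100.

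On the 3′ arm the tags ran past the annotated end. They did so for 85.1% ± 6.15 of miR-99a* tags and 81.1% ± 3.76 of miR-99b* tags, but for 31.8% ± 7.05 of miR-100* tags, of which 64.5% ± 6.98 ended at the annotated base. The end of miR-99a* was most often 2 bases past it (46.1% ± 9.27). That of miR-99b* was spread over 1, 2 and 3 bases past it, with 28.2% ± 3.15, 25.1% ± 2.61 and 24.9% ± 4.25.

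Mean tag lengths reflect both the starts and the ends. They were 21.9 ± 0.0988 nt for miR-99a, 21.6 ± 0.0752 nt for miR-99b and 21.5 ± 0.0822 nt for miR-100, and 22.6 ± 0.249 nt for miR-99a*, 23.4 ± 0.185 nt for miR-99b* and 21.7 ± 0.0746 nt for miR-100* (SD, n = 7). The smallest of the 6 pairwise differences on the same arm, 0.126 ± 0.0650 nt between miR-99b and miR-100, had the same sign in 7 of 7 libraries, as had the other 5 (exact sign-flip permutation test, p = 0.0156 each, adjusted p = 0.0156).

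Tags over 24 nt were common on a single strand of the family. They made up 27.5% ± 4.76 of miR-99b* (SD, n = 7), against 2.92% ± 0.697 of miR-99b, 3.18% ± 3.15 of miR-99a* and less than 1% on average of the other 3 strands. Over all generic tags the share was 8.07% ± 1.31, while the median over 414 strands with at least 150 tags was 1.69%. For miR-99a* these long tags numbered 35 of 656, 7 of 246 and 1 of 180 tags over time course 1. Over time course 2 they numbered 33 of 361, 4 of 212, 9 of 357 and 0 of 174, where a count of 0 allows a share of up to 1.73%. Every later library was below both day 1 libraries. The difference between day 4 and day 1 was -3.96 log2 odds (SE 0.65, limma's adjusted p = 0.142 over 268 strands), with a pseudocount of 0.5. With a pseudocount of 5 it was -1.50 (limma's adjusted p = 0.458). Over the family 0 of 6 strands passed this test, against 0% of the strands tested, 13 of which had an unadjusted p under 0.05 by limma.

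**Figure D5:**
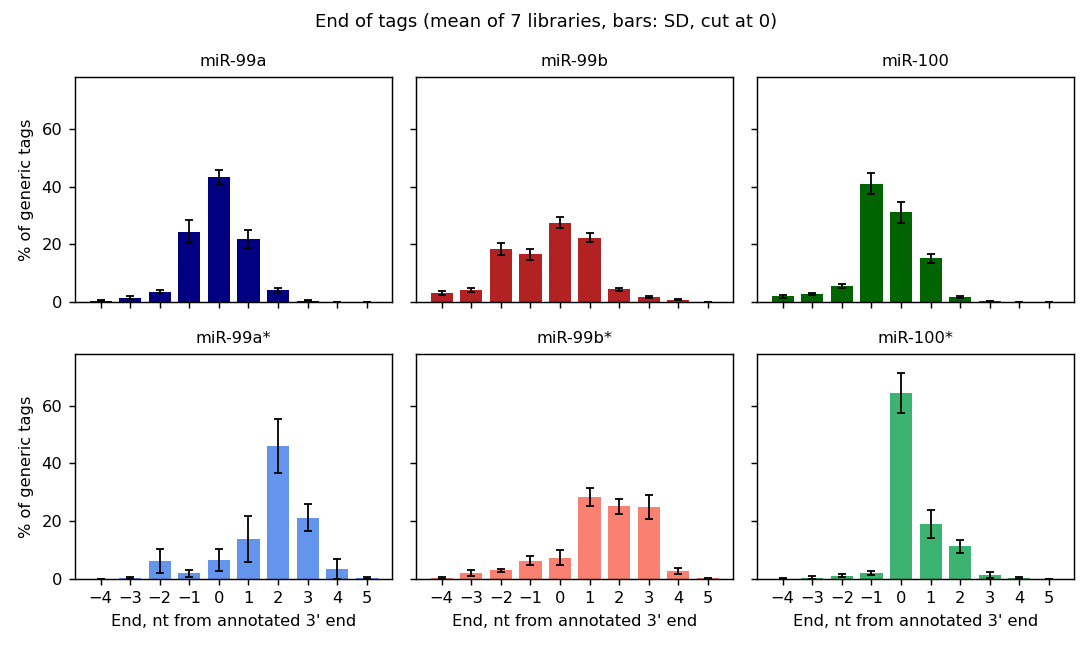
End of tags relative to the annotated 3′ end (nt, positive values past the end) for the 6 strands, in percent of generic tags, as the mean over 7 libraries with the SD as bars. miR-99a peaks at 0 and miR-100 at -1, while miR-99a* peaks at +2 and miR-99b* is spread over +1 to +3.

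Tags with a base change were a part of every strand, but where the changes lay was much alike. The share of tags with a mismatch was 10.02% ± 1.27 for miR-99a, 7.16% ± 2.85 for miR-99b and 6.80% ± 1.38 for miR-100, and 19.8% ± 7.69 for miR-99a*, 9.87% ± 2.60 for miR-99b* and 5.41% ± 2.56 for miR-100* (SD, n = 7). Of 119436 tags of the family with 1 change, 94.1% had it at bases 17 to 21 of the tag and 2.38% at bases 2 to 8. Over all placed tags with 1 change, 80.6% lay at bases 17 to 21, so the position is not particular to the family.

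A single change reached 5% of the tags that covered its base. It was G18A in miR-99a*, counted from the annotated start, with 7.51% ± 5.10 of tags (SD, n = 7) and a range from 1.67% to 16.2% over libraries. The same change at the matching base reached 2.78% ± 1.76 in miR-99b* and, as G19A because the annotated strand begins 1 base earlier, 1.28% ± 0.503 in miR-100*. In the 5′ strands no change reached 2% over the merged libraries, and within the seed of any strand none reached 0.2%.

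How well near-identical members can be told apart rests on few bases. Of the tags assigned to miR-99a or miR-100, 11084 fell on both equally well, and they were divided equally. Before this division they equal 1.15% of the total counted for miR-99a and 3.29% of that for miR-100. The shared part within each total is smaller, since each strand was credited with only a part of them. At base 16, where these strands differ, 74.0% of the tags of either strand had U, 25.5% had A, 0.308% had C and 0.157% had G. The last 2 bases belong to neither sequence, and their share was small against the share of either member. A further 11 tags fell on both miR-99a* and miR-99b*.

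The 2 time courses were compared next, with day as a factor, to see whether repeats of the culture differed in this family. 0 of 6 strands passed the test, against 3.24% of the 587 strands tested (19 strands by edgeR, 137 at an unadjusted p under 0.05, and 48 by DESeq2). With so small a share over all strands, 0 of 6 does not set the family apart. The log2 difference of time course 2 to time course 1 was 0.20 (SE 0.15) for miR-99a and ranged from -0.31 to -0.46 for the other 5 strands, with edgeR's adjusted p from 0.264 to 0.518. For the share of the 3′ arm 0 of 3 hairpins passed, against 0.526% of the 190 hairpins tested. The log2 odds of time course 2 to time course 1 differed by -0.53 (SE 0.42) for miR-99a, -0.13 (SE 0.38) for miR-99b and -0.14 (SE 0.37) for miR-100, with limma's adjusted p from 0.487 to 0.883.

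The strands whose levels followed the major strands most closely over the 7 libraries were listed as a description, since 7 points that share time courses and depth carry little weight. For miR-99a the highest Pearson correlations of log2 CPM among 414 strands were with miR-7a-1-3p (0.96), the 3′ strand of mir-1a-1 (0.84) and miR-465a-3p (0.83). For miR-99b they were with the endothelial marker miR-126a-3p (0.98), miR-152-3p (0.97) and the 5′ strand of mir-1957a (0.96). For miR-100 they were with let-7g-5p (0.92), miR-19b-3p (0.91) and miR-130a-3p (0.90). None of these 9 strands comes from a cluster of the family, and none of the 3 lists held another member.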

How the data were processed

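The authors extracted total RNA with TRIzol, enriched small RNA by electrophoresis, prepared SOLiD small RNA libraries and used the SOLiD pipeline to map the tags, first to hairpins of miRBase (release 16) and then to mm9, the build named in the submitters' processing notes. They deposited for each library the distinct tags on miRNA hairpins with their raw counts, which were not normalized. Here each tag of at least 16 nt was placed on 1174 hairpins (GENCODE M21, GRCm38) by its best ungapped hit with at most 2 mismatches with an overhang of 4 bases allowed at hairpin ends, and 101 lines without a sequence were left out. Tags with several best hits were divided equally and sums rounded to whole numbers. Strand positions came from RefSeq, and copies of a miRNA were merged. Tags starting within 3 nt of a strand's start were called generic.

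Days were compared with edgeR 4.0.16 (quasi-likelihood test, TMM, filterByExpr, 7 libraries with day as a factor, which leaves 3 residual degrees of freedom; BCV 0.392) and shares with limma 3.58.1 on log2 odds (pseudocount 0.5, at least 50 tags in every library and 10 of each outcome), each over all strands with Benjamini-Hochberg adjustment. The time courses were compared in the same fit with the replicate number added. For edgeR the SE was derived as the absolute log2 fold change divided by the square root of the F statistic. DESeq2 1.42.0, other scalings, no filter, perfect or unambiguous tags and left-out libraries were tried as alternatives. Replicate numbers were taken to name repeats of the time course. Deviations of same-numbered libraries correlated over 587 strands (0.411 for days 1 and 3, 0.378 for days 1 and 4, 0.359 for days 3 and 4), so an alternative fit took the repeat as a block. Members were compared within libraries by exact sign-flip tests. Other tools were RNAfold 2.7.2 and R 4.3.3. Scripts were tested on simulated data. No correction was made for differences between sequences in ligation or amplification, so ratios between members are ratios of tags. Libraries are repeats of 1 cell line, and p values measure only their spread. Named strands were the 6 members, the strands of neighbouring hairpins, the 3 most similar strands for each major strand, and tag forms with at least 5% of a strand. The members and lists were chosen with earlier results of these data known, the +1 start of miR-100* among them.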

Additional observations from a re-analysis of the deposited data

Results flagged for a closer look

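In 3 measures every later library of time course 1 moved to one side of its own day 1 library, and every later library of time course 2 to the other. These measures were picked for this pattern from all levels, arm shares, start shares, lengths and long-tag shares of the family. How many would show it by chance was not worked out. Whether the change over days differed between the time courses was not tested. The difference in level between the time courses was tested, and none of the 3 measures passed (adjusted p = 0.482 from edgeR for the level of miR-99a, and from limma 0.532 and 0.784 for the start shares of miR-99a and miR-100). The level of miR-99a was higher than at day 1 in time course 1, by 0.34 and 0.11 on the log2 scale on days 3 and 4, and lower in time course 2, with -0.28, -0.00644 and -0.0139 on days 2, 3 and 4. The share of miR-99a tags off the annotated start differed from that of day 1 by -0.108 and -0.0928 percentage points in time course 1 and was 0.0760, 0.0859 and 0.116 points higher in time course 2, in the same order. That of miR-100 differed by -0.0132 and -0.113 points in time course 1 and was 0.329, 0.384 and 0.705 points higher in time course 2.

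Tags that started more than 3 nt from an annotated start were outside all comparisons. They numbered 52 on the miR-99a hairpin, 69 on miR-99b and 46 on miR-100, more than the 3 tags that a count of 0 allows, and were at most 0.0450% of a hairpin's tags. On miR-99b, 40 of them began in the loop, in 7 of 7 libraries, and 25 of these at the first base after the annotated end of miR-99b. Loop tags numbered 7 on miR-99a and 1 on miR-100.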

How the results depend on the processing

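The 18 differences between members within libraries kept their sign and their side of the threshold with perfect tags, with tags of 1 miRNA, with a start window of 1 nt and without each library in turn, where the smallest p that 6 libraries allow is 0.0312. No strand, arm share, start share or share of long tags of the family passed the threshold under any alternative, including the time course as a block (replicate block), which changed no call. With this pairing of libraries the adjusted p was 0.100 for miR-99b*, 0.151 for miR-99a* and 0.147 for the 3′ arm share of miR-99b. Counts over all strands did depend on the setting: between day 4 and day 1 DESeq2 called 15 of 587 strands, edgeR without a filter 10 of 1141 and with day as a number 1 of 587, against 0. Between time courses, against 19 strands, it was 0 without either day 1 library, 8 and 54 without the day 3 library of time course 1 and 2, 61 and 62 without that of day 4, 48 with DESeq2, 74 without a filter, 33 with RLE size factors, 32 with perfect tags and 40 with tags of 1 miRNA.

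Library totals moved the median log2 fold change of all strands by -0.189. Under them miR-99a had -0.14 and miR-100 -0.18 between day 4 and day 1, the opposite sign to the values above. For miR-100 the sign also turned without a filter (-0.0308) and with the replicate block (-0.00266). With perfect tags the start share of miR-99a* differed by -0.13 in log2 odds, against 0.11, and with a pseudocount of 5 the share of long miR-99a* tags differed by -1.50, against -3.96. Leaving out a library of days 1, 3 or 4, the fold change ran from -0.12 to 0.30 for miR-99a, from -0.23 to 0.24 for miR-100, from -1.60 to -0.92 for miR-99b* and from -1.42 to -0.72 for miR-99a*. The 3′ arm share ran from -1.68 to -0.63 for miR-99a, from -2.18 to -1.51 for miR-99b and from 0.26 to 0.78 for miR-100. The start share ran from -0.65 to 0.36 for miR-100* and from -0.20 to 0.23 for miR-99a. The share of long tags ran from -0.73 to 2.03 for miR-100*, from -0.52 to 0.94 for miR-100, from -0.50 to 0.43 for miR-99a, from -0.15 to 0.72 for miR-99b* and from -0.66 to 0.10 for miR-99b. The cause of these turns was not tested. With 2 libraries at days 1, 3 and 4, 1 at day 2 and 174 to 656 tags of miR-99a* per library, differences of the size seen for the passenger strands could not be told from the spread after adjustment.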

Other observations

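Shares of long tags were also compared between the time courses, a comparison added after the values had been seen. Tags over 24 nt made up 0.545%, 0.434% and 0.473% of miR-99a at days 1, 3 and 4 of time course 1. In time course 2 they made up 0.813%, 0.695%, 0.825% and 0.894% at days 1 to 4. All libraries of time course 2 thus lay above all libraries of time course 1. The log2 odds differed by 0.81 (SE 0.24, limma's adjusted p = 0.147 over 268 strands). For miR-99b the difference was 0.68 (SE 0.24), for miR-100 0.89 (SE 0.31) and for miR-100* 2.18 (SE 0.67), with limma's adjusted p from 0.153 to 0.167, while miR-99a* had -0.30 and miR-99b* -0.24. The value for miR-100* rests on few long tags. They numbered 1, 1 and 0 over time course 1 and 2, 0, 2 and 9 over time course 2. None of the strands tested (0%) passed the threshold, and 76 of 268 had an unadjusted p under 0.05 by limma, so that a difference of this kind was not particular to the family.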
